A study of Arabidopsis with 12 samples.

Results

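The Fe label was compared within the pad4 mutant of Arabidopsis thaliana, as 3 pad4 libraries labelled -Fe against 3 pad4 libraries labelled +Fe. These were 6 of the 12 RNA sequencing libraries of the study, and 19646 of the 28693 loci of the expression table reached 1 FPKM (mapped fragments scaled to transcript length and to the total of the library) in at least 3 of the 6 and were compared. Both pad4 groups carry a mutation in PAD4 in Col-0, the accession that served as wild type; the mutant allele is not named in the labels. Seedlings germinated on agar medium and stood for 7 d on complete solid medium (+Fe) or on that medium lacking Fe (-Fe), at 24 °C, 140 µmol photons per m2 and s, with 16 h of light and 8 h of darkness. RNA came from 7 d old seedlings, whose material the labels call shoot in one place and leaves and roots in another. The 6 wild-type libraries, 3 labelled +Fe and 3 labelled -Fe, had the same treatments and serve here for tests of where pad4 differs. They also enter the shared estimate of the spread, on which the SE and p-values of the pad4 differences rest. Whether replicates grew on separate plates or days is not stated in the labels, so p-values reflect only the spread among these libraries, which may be technical.

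PAD4, which resembles lipases, works together with EDS1 to raise salicylic acid, the hormone of defence against pathogens that live on living tissue. Arabidopsis roots take up Fe by acidifying the soil, reducing ferric chelates with the reductase FRO2 and importing ferrous Fe through IRT1, and shoots report their Fe status through transcription factors of the clade of bHLH38, bHLH39, bHLH100 and bHLH101. When Fe is short these regulators rise, while ferritins, which store Fe in plastids, and abundant Fe proteins of the chloroplast fall.

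The mutated gene and the Fe labels were checked first. PAD4 (AT3G52430, chromosome 3, 19431371 to 19434403 on TAIR10) was measured in every pad4 library, at 13.6, 11.1 and 13 FPKM in libraries labelled +Fe and 12.2, 10.8 and 10.3 FPKM in libraries labelled -Fe, against 22, 19.6 and 21.3 and 19.5, 18.1 and 21.1 FPKM in the wild type. The pad4 values lay below all wild-type values, and the difference between Fe labels in pad4 did not pass the test (log2 difference -0.16, SE 0.095, limma adjusted p = 0.156), although it did without pad4 +Fe replicate 2 (-0.25). A transcript of the mutated gene was thus present at a reduced level, and the reads behind it were not analysed here.

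The Fe marker genes ran against the Fe labels. bHLH100 (AT2G41240, chromosome 2, 17198282 to 17199320) stood at 1042, 1137 and 1134 FPKM in pad4 under the +Fe label and at 0.524, 0.563 and 0.122 FPKM under the -Fe label, although it is a gene that plants raise when Fe is short. The ferritin gene FER1 (AT5G01600, chromosome 5, 227953 to 230051) stood at 10.5, 10.9 and 11.1 FPKM in libraries labelled +Fe and at 301, 271 and 311 FPKM under the -Fe label, although ferritin is raised by Fe. No value of the groups overlapped in either gene. The labels were kept as deposited, so every direction below is a direction between libraries labelled -Fe and libraries labelled +Fe and not between Fe supplies. A log2 difference is the mean of log2(FPKM + 1) in libraries labelled -Fe minus that in libraries labelled +Fe.

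**Figure D1:**
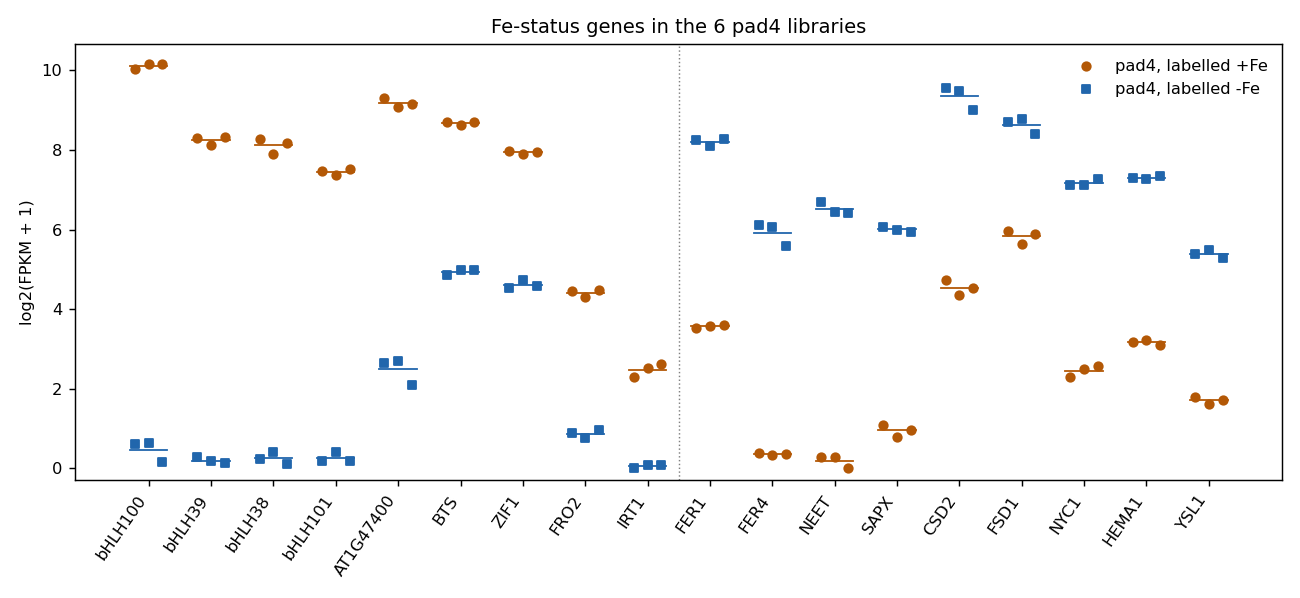
Level of 18 Fe-status genes in each of the 6 pad4 libraries, as log2(FPKM + 1) on the vertical axis. Circles are libraries labelled +Fe, squares libraries labelled -Fe and short lines group means. The genes left of the dotted line are lower and those right of it higher in the libraries labelled -Fe, and no gene shown has overlapping groups.

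Across the table, 11377 of the 19646 loci were called at a Benjamini-Hochberg adjusted p under 0.05, which is 57.9% of those tested. Of these, 5216 were higher (26.5%) and 6161 lower (31.4%) in the libraries labelled -Fe. With most loci called, a share of called members near 57.9% says little of a gene list. The median size of a called difference was 0.61 log2 units, and 2594 loci (13.2%) were called with a difference of at least 1 log2 unit, 1174 of them higher (5.98%) and 1420 lower (7.23%). The 3 values of each label did not overlap at 12232 loci (62.3%). Calls were somewhat denser among abundant loci, from 49.6% of 1781 loci under 2 FPKM to 67.2% of 1586 loci over 100 FPKM, and in this last class the higher calls (620) outnumbered the lower calls (446). Which side was larger over all calls depended on scaling, since 45.8% of calls were higher as deposited and 51.6% after quantile normalization. The median over all tested loci was -0.05 log2 units. Of the tested loci, 315 reached 1 FPKM in none of the libraries labelled +Fe and 380 in none of those labelled -Fe, so the filter admitted them through one label only and the direction of their difference follows in part from it.

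Some facts of the libraries stand beside all of these results. The FPKM of the 6 libraries summed to 904688 to 1004000 and 19096 to 19311 loci reached 1 FPKM, while the depth relative to the deepest of the 6, read from the smallest values above 0, was 0.847 to 1 in libraries labelled +Fe and 0.582 to 0.768 in those labelled -Fe. The absolute depth is unknown. The locus with the highest FPKM, where AT1G07590 and AT1G07600 are merged, took 7.38% to 14.0% of all FPKM in libraries labelled +Fe and 2.52% to 5.89% in those labelled -Fe. Replicates correlated across loci at r = 0.981 to 0.991. The libraries pad4 +Fe replicate 2 and pad4 -Fe replicate 3 deviated from their groups in a like way (r of deviations across loci 0.44), and without both of them 10304 loci were called. The wild-type replicate 2 libraries deviated with them (r of pad4 -Fe replicate 3 with replicate 2 of the other groups 0.44 to 0.56), so the interactions below rest on 4 such libraries. Without all 4, an alternative added after seeing the data, 12261 loci were called in pad4. In bulk tissue, a change in the share of a cell type and a change in RNA per cell cannot be told apart.

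Regulators of the Fe-deficiency response fell, and 4 of them, bHLH100, bHLH39, bHLH38 and bHLH101, head the largest named falls in pad4. Of 20 regulators tested, 16 fell and 2 rose. Of the falls, 7 were of genes that no library labelled -Fe held at 1 FPKM, among them the 4 bHLH genes, and the filter could admit these only as falls. Among the 11 regulators that reached 1 FPKM under both labels, 9 fell, 0 rose and 2 were not called. bHLH39 lay at 312, 278 and 318 FPKM in libraries labelled +Fe and at 0.215, 0.128 and 0.101 FPKM under the -Fe label (log2 difference -8.04, SE 0.089, adjusted p = 5.13e-13). Its neighbour bHLH38 went from 309, 238 and 287 to 0.185, 0.33 and 0.087 FPKM (log2 difference -7.86, SE 0.11, adjusted p = 1.43e-12). Both genes are placed in 1 locus span (chromosome 3, 21046341 to 21087957) that also holds the aquaporin gene SIP2;1, so the span alone does not show shared fragments. The sequences of bHLH38 and bHLH39 are similar, and fragments may have been shared between them. AT1G47400, a short gene of this list, went from 635, 536 and 572 to 5.3, 5.5 and 3.3 FPKM, a fall of the same order as those of the bHLH genes. BTS, a ubiquitin ligase that binds Fe and holds the response back, lay at 415, 394 and 416 FPKM in libraries labelled +Fe and at 27.8, 30.6 and 30.9 FPKM under the -Fe label (log2 difference -3.73, SE 0.06, adjusted p = 3.67e-12), so that a known brake on the response fell with its activators.

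The rises in this list were those of a repressor and of FIT, both of which passed the filter through the -Fe label only. bHLH11, known as a repressor of Fe uptake genes, rose from 0.0712, 0.151 and 0.126 to 1.38, 1.69 and 1.81 FPKM (log2 difference 1.23, SE 0.16, adjusted p = 4.32e-05). FIT, the regulator that partners the bHLH factors in roots, lay at 0.886, 0.647 and 0.456 FPKM in libraries labelled +Fe and 1.83, 1.05 and 1.41 FPKM under the -Fe label. Its difference of 0.54 was called (adjusted p = 0.0126), but not without pad4 +Fe replicate 3 (0.45), without pad4 -Fe replicate 1 (0.43) or without the pair of libraries that deviate alike (0.54), which leaves 1 rise in the list. The filter could admit bHLH11 and FIT only as rises, so their direction is not set against that of the bHLH genes.

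Fe transport genes moved in both directions. Of 26 uptake and transport genes tested, 13 fell and 9 rose (median -0.26), and 3 of the falls, those of FRO2, IRT1 and NAS2, were of genes below 1 FPKM in every library labelled -Fe. FRO2, the ferric chelate reductase, fell from 20.9, 18.8 and 21.4 to 0.852, 0.711 and 0.936 FPKM (log2 difference -3.54, SE 0.086, adjusted p = 7.08e-11). IRT1, the main root Fe importer, was low throughout, at 3.95, 4.74 and 5.12 FPKM in libraries labelled +Fe and 0, 0.0682 and 0.0533 FPKM under the -Fe label. ZIF1, which moves the metal chelator nicotianamine into the vacuole, fell from 248, 237 and 247 to 22.2, 25.5 and 23 FPKM (log2 difference -3.32, SE 0.064, adjusted p = 9.61e-12). NAS2, a nicotianamine synthase, fell from 16.8, 14.5 and 15.5 to 0.0898, 0.215 and 0.17 FPKM and is listed in 2 entries, of which the higher was used. YSL1, a carrier of metal-nicotianamine complexes in leaves and seeds, did the reverse and rose from 2.45, 2.09 and 2.31 to 40.9, 43.8 and 37.8 FPKM (log2 difference 3.67, SE 0.089, adjusted p = 7.08e-11). Of the coumarin genes, whose products mobilise Fe around roots, 4 of 8 were expressed enough to test, and F6H1, the hydroxylase at the start of the pathway, fell from 6.72, 5.48 and 6.67 to 3.54, 2.49 and 2.41 FPKM (log2 difference -0.94, SE 0.13, adjusted p = 9.66e-05).

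Ferritin and vacuolar Fe transporter-like genes, which serve Fe storage, were higher in the libraries labelled -Fe. Of 10 listed genes 6 were tested, and 3 of these, FER2, FER4 and VTL5, passed the filter through the -Fe label only and could only be higher, so no count of calls is read from this list. The ferritin gene FER3, chosen here with VTL2 after its values were seen, lay well over the filter throughout, at 17.95, 19.3 and 16.1 FPKM in libraries labelled +Fe and at 87.2, 85.7 and 78.2 FPKM under the -Fe label (log2 difference 2.18, limma adjusted p = 1.2e-08). VTL2, a relative of VTL5, lay at 0.978, 1.31 and 1.12 FPKM and at 3.57, 4.24 and 3.32 FPKM. The ferritin gene FER4 went from 0.316, 0.265 and 0.278 to 68.3, 65.5 and 47.1 FPKM (log2 difference 5.56, SE 0.16, adjusted p = 3e-10). VTL5, a vacuolar Fe transporter-like gene, was listed at 0, 0 and 0.0673 FPKM in libraries labelled +Fe and lay at 7.18, 5.46 and 6.84 FPKM under the -Fe label. Of 24 genes of Fe-S cluster assembly, 8 rose, 4 fell and 12 were not called. The largest rise was that of NEET, an Fe-S protein that passed the filter through the -Fe label only, from 0.212, 0.214 and 0 to 102, 86.2 and 84.2 FPKM. ABCI8, a scaffold subunit of the plastid pathway, rose from 7.88, 9.26 and 9.19 to 117, 112 and 123 FPKM (log2 difference 3.60, SE 0.089, adjusted p = 8.03e-11), whereas the mitochondrial cysteine desulfurase NFS1 fell from 52.8, 60.2 and 51.5 to 41.2, 34.7 and 37.9 FPKM (log2 difference -0.52, SE 0.083, adjusted p = 0.000257).

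Chloroplast genes were higher in the libraries labelled -Fe. Of 36 antenna and photosystem genes, 34 were called higher and 0 lower, with a median of 1.32 log2 units. PSAN, a photosystem I subunit, went from 226, 181 and 210.1 to 1759, 1603 and 1352 FPKM (log2 difference 2.92, SE 0.13, adjusted p = 7.82e-09). LHCB4.3, a minor antenna protein, went from 6.43, 6.2 and 5.34 to 66.3, 76.7 and 59.3 FPKM (log2 difference 3.29, SE 0.13, adjusted p = 3.58e-09). Among tetrapyrrole genes 24 of 37 rose and 2 fell. HEMA1, the enzyme that opens the pathway to chlorophyll and haem, rose from 8.02, 8.4 and 7.61 to 157, 153 and 160.4 FPKM (log2 difference 4.13, SE 0.057, adjusted p = 1.33e-12). NYC1, a chlorophyll b reductase of chlorophyll turnover, rose from 3.88, 4.63 and 4.92 to 137, 137 and 153 FPKM (log2 difference 4.71, SE 0.092, adjusted p = 1.03e-11), so synthesis and turnover genes rose side by side. CLH2, a chlorophyllase, fell from 7.35, 9.19 and 7.42 to 3.75, 3.75 and 3.42 FPKM (log2 difference -0.95, SE 0.13, adjusted p = 7.85e-05).

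The electron carriers and the carbon-fixing enzymes moved with them. Of 12 carriers, 8 rose and 3 fell (6 and 4 after quantile normalization, which moved the median from 0.73 to 0.44). FD2, the main leaf ferredoxin and an Fe-S protein, rose from 405, 449.9 and 408 to 2598, 2804 and 2421 FPKM (log2 difference 2.63, SE 0.09, adjusted p = 1.12e-09). The root-type ferredoxin reductases RFNR1 and RFNR2 fell by 1.49 and 1.04 log2 units, against the direction of the leaf carriers. Of 18 Calvin cycle genes 16 rose and 0 fell (median 0.69). RBCS2B, a small subunit of Rubisco, went from 1671, 1286 and 1708 to 5327, 5209.8 and 4258 FPKM (log2 difference 1.67, SE 0.15, adjusted p = 2.84e-06), but the subunit copies are near-identical and share fragments. After quantile normalization 14 Calvin cycle genes were called higher and 1 lower, with a median of 0.45.

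Transcripts of the organelle genomes moved apart. Of 71 tested loci on the plastid genome, 32 were called higher and 0 lower, with a median of 0.86 log2 units. Of 66 tested loci on the mitochondrial genome, 27 were called lower and 0 higher, with a median of -0.42. The summed plastid share of all FPKM was 0.448% to 0.566% in libraries labelled +Fe and 0.832% to 0.977% in those labelled -Fe, without overlap. The mitochondrial share was 0.174% to 0.209% in libraries labelled +Fe and 0.0496% to 0.0795% in those labelled -Fe, also without overlap. At the 5 nuclear chromosomes the share of called loci was 56.9% to 59.2%. Per the labels the libraries were made from purified mRNA, and organelle transcripts seldom carry stable poly(A) tails, so these values rest on a small and selected share of organelle RNA.

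Most ascorbate peroxidase and catalase genes and the superoxide dismutase genes CSD1, CSD2 and FSD1 rose. Of 24 superoxide dismutase, copper and zinc genes, 8 rose and 12 fell, 3 of the latter being genes below 1 FPKM in every library labelled -Fe. CSD2, the chloroplast Cu/Zn superoxide dismutase, rose from 25.5, 19.4 and 21.9 to 750.3, 718 and 508 FPKM (log2 difference 4.81, SE 0.18, adjusted p = 2.54e-09). FSD1, an Fe superoxide dismutase, rose with it, from 61.4, 49 and 58.2 to 418, 434 and 337 FPKM (log2 difference 2.79, SE 0.13, adjusted p = 1.04e-08). The cytosolic Cu/Zn gene CSD1 rose from 69.5, 49.4 and 62.6 to 600, 495 and 409 FPKM (log2 difference 3.03, limma adjusted p = 4.18e-08). FSD2 and FSD3 rose by 0.39 and 0.79, and MSD1 was not called (0.13). CCS, which loads copper into the Cu/Zn enzymes, rose from 16.8, 13.6 and 15 to 124, 125 and 111 FPKM. ZIP4, a zinc transporter, fell from 33.3, 38.4 and 35.9 to 4.55, 4.61 and 4.44 FPKM (log2 difference -2.73, SE 0.07, adjusted p = 9.96e-11). Of 10 ascorbate peroxidase and catalase genes, 7 rose and 0 fell. CAT3 rose from 211, 205 and 230.4 to 3054, 2954 and 3062 FPKM (log2 difference 3.81, SE 0.071, adjusted p = 7.26e-12), and the stromal peroxidase SAPX from 1.14, 0.737 and 0.96 to 66.3, 62.8 and 60.6 FPKM (log2 difference 5.05, SE 0.091, adjusted p = 6.53e-12).

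Other genes among the 10 largest named changes have roles outside Fe handling. UGT74E2, a glucosyltransferase of indole-butyric acid, fell from 92, 82 and 83.8 to 0.882, 0.688 and 0.783 FPKM (log2 difference -5.61, SE 0.076, adjusted p = 1.33e-12). NAC044, a transcription factor of the DNA damage response, fell from 61.6, 68.6 and 65.7 to 1.36, 1.07 and 1.52 FPKM in the higher of its 2 entries (log2 difference -4.84, SE 0.11, adjusted p = 5.36e-11). ERF71, an ethylene response factor of the hypoxia group, fell from 31.4, 31.9 and 32.6 to 0.427, 0.34 and 0.789 FPKM (log2 difference -4.45, SE 0.11, adjusted p = 1.03e-10). All 3 genes had replicate values close together, unlike TDR1 and RUB3, which the same rule named. NDB4, an alternative NADH dehydrogenase of mitochondria, fell from 20.1, 21 and 22 to 0.0372, 0 and 0.106 FPKM, with 0 in 1 of the libraries. TDR1 is split over 3 entries and was listed at 0, 0 and 18.1 FPKM in libraries labelled -Fe after 165, 73.8 and 99.1 FPKM under the +Fe label. RUB3, a ubiquitin-related gene with near-identical relatives, was listed at 0 in all 3 libraries labelled -Fe and at 10.8, 29.1 and 30.6 FPKM under the +Fe label. UGT74E2, ERF71, NDB4 and RUB3 were below 1 FPKM in every library labelled -Fe. The filter could admit these genes only as falls, so their values are given as a description. ENH1, a rubredoxin-like chloroplast protein, rose from 5.28, 3.86 and 4.67 to 217, 201 and 201 FPKM (log2 difference 5.22, SE 0.098, adjusted p = 7.8e-12).

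**Figure D2:**
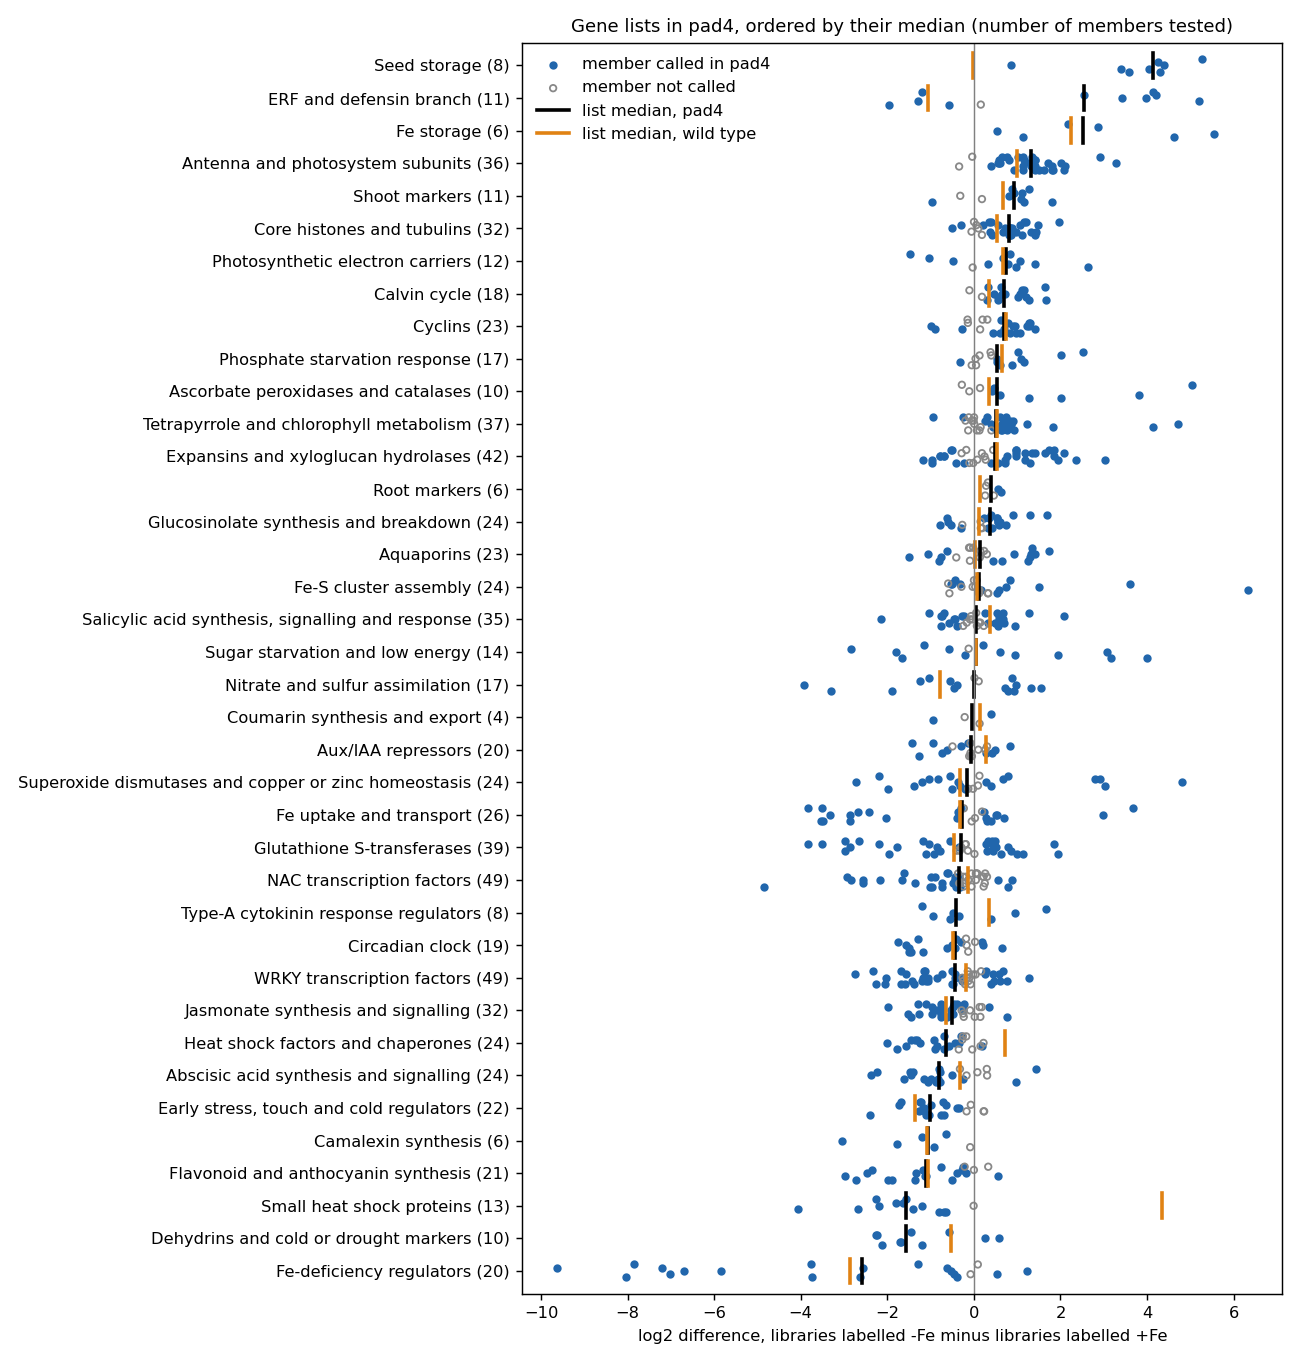
Log2 differences between pad4 libraries labelled -Fe and +Fe for the tested members of 38 gene lists, ordered by list median (number tested in brackets). Filled points are members called in pad4, open points members not called, black bars the list median in pad4 and orange bars the list median in the wild type. The bars stand farthest apart for small heat shock proteins, where they lie on opposite sides of 0. Members that passed the filter through one label only, such as 7 of the 8 seed storage genes, are drawn with the others, and no support is read from the median of such a list.

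Genes of nitrogen and sulfur assimilation moved in both directions. Of 17 genes, 7 rose and 8 fell, and the list median of 0.013 changed sign after quantile normalization. SIR, the sulfite reductase that needs both an Fe-S cluster and sirohaem, rose from 89.7, 76.2 and 87.3 to 260.2, 257 and 230.1 FPKM (log2 difference 1.55, SE 0.087, adjusted p = 6.76e-08). NRT1.1, a nitrate transporter and sensor, rose from 58.2, 57.1 and 63.3 to 160.1, 153 and 139 FPKM (log2 difference 1.32, SE 0.066, adjusted p = 2.34e-08). LSU1, a gene induced by low sulfur, fell from 238, 232 and 214 to 17.39, 12.3 and 13 FPKM (log2 difference -3.92, SE 0.14, adjusted p = 1.64e-09). SDI1, likewise a marker of sulfur shortage, fell from 64.1, 71.5 and 65.9 to 6.38, 5.58 and 5.71 FPKM (log2 difference -3.31, SE 0.087, adjusted p = 1.15e-10). Compared with the wild type, 12 of the genes had a called positive interaction (the pad4 difference minus the wild-type difference) and 0 a negative one, where 7.28% and 7.56% of all loci had a positive and a negative one.

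Salicylic acid genes moved in both directions. Of 35 genes of its synthesis, signalling and response, 13 rose, 12 fell and 10 were not called (median 0.053). EDS1, the partner of PAD4, fell from 40.8, 42.2 and 40.1 to 30.4, 27.9 and 34.8 FPKM (log2 difference -0.40, SE 0.10, adjusted p = 0.00553). NPR1, a receptor of salicylic acid, fell from 52.8, 65.8 and 52.8 to 37.9, 33 and 42.9 FPKM (log2 difference -0.58, SE 0.15, adjusted p = 0.00537). ICS1, the enzyme of the main synthesis route, lay at 16.3, 17.2 and 15.65 FPKM in libraries labelled +Fe and at 13.9, 11.3 and 14.8 FPKM under the -Fe label. Its difference of -0.29 was called (adjusted p = 0.0159), but not without pad4 +Fe replicate 2 (-0.25) or in a fit of the 6 pad4 libraries alone (-0.29). PR1 (AT2G14610, chromosome 2, 6241704 to 6242463), the classical marker of the hormone, lay at 83.1, 112 and 97.1 FPKM in libraries labelled +Fe and 69.3, 65 and 75.1 FPKM under the -Fe label. Its difference of -0.47 was called (adjusted p = 0.0139), but not without pad4 +Fe replicate 2 (-0.36), without pad4 -Fe replicate 2 (-0.42) or without the pair of libraries that deviate alike (-0.41).

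The wild type differed from pad4 in several of these genes. PR1 stood at 73.1, 91.5 and 76.7 FPKM in wild-type libraries labelled +Fe and at 272, 332 and 236 FPKM under the -Fe label, and the difference between genotypes passed the test (interaction -2.24, SE 0.20, adjusted p = 2.06e-05). Interactions were called for ICS1 (-0.66, adjusted p = 0.00413) and EDS1 (-0.60, adjusted p = 0.0154), and not for NPR1 (-0.28, adjusted p = 0.409). Over the list 16 of 35 genes had a negative interaction and 4 a positive one, where 7.56% and 7.28% of all loci had these. PCC1, a small defence gene, was an exception, since it rose from 24.5, 33.5 and 33 to 125, 123 and 144 FPKM (log2 difference 2.08, SE 0.19, adjusted p = 3.02e-06) and had an interaction of 1.02 (adjusted p = 0.0247). UGT76B1, which conjugates salicylic acid and related immune regulators, fell from 21.4, 26.9 and 23.7 to 4.8, 4.04 and 5.24 FPKM (log2 difference -2.13, SE 0.14, adjusted p = 2.25e-07).

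Defensin, PR4 and chitinase genes of the jasmonate and ethylene branch rose, while several ERF factors and genes of jasmonate synthesis fell. PDF1.3 (AT2G26010, chromosome 2, 11087348 to 11087944), a defensin gene, lay at 5.94, 3.05 and 4.68 FPKM in libraries labelled +Fe and 226, 279.9 and 121 FPKM under the -Fe label (log2 difference 5.19, SE 0.34, adjusted p = 2.09e-07). PDF1.2A, the best known defensin marker, lay at 42.9, 22.6 and 37.4 FPKM and 674, 679.8 and 344 FPKM (log2 difference 3.99, SE 0.35, adjusted p = 2.26e-06), and PDF1.2C at 30.1, 17.7 and 25.6 FPKM and 514, 689 and 278 FPKM (log2 difference 4.21, SE 0.36, adjusted p = 2.14e-06). The groups did not overlap in any of these genes, although pad4 -Fe replicate 3 was the lowest of its group in each, and the coding sequences are so alike that fragments may have been shared. PR4, a chitin-binding protein, rose from 131, 127 and 119 to 824, 755 and 651 FPKM (log2 difference 2.55, SE 0.095, adjusted p = 2.16e-09), and the basic chitinase CHIB from 0.645, 0.986 and 1.17 to 37.5, 31.9 and 29.3 FPKM (log2 difference 4.13, SE 0.12, adjusted p = 2.16e-10). ERF1, a factor known to raise such genes, fell from 8.11, 7.63 and 6.48 to 1.89, 0.729 and 1.03 FPKM (log2 difference -1.95, SE 0.24, adjusted p = 3.6e-05). In the wild type PDF1.3 lay at 18.1, 13.6 and 20.1 FPKM in libraries labelled +Fe and at 11.6, 5.02 and 9.3 FPKM under the -Fe label (interaction 6.17, SE 0.47, adjusted p = 7.01e-06). The interactions were 5.65 for PDF1.2A and 5.88 for PDF1.2C (adjusted p = 1.87e-05 and 1.95e-05). Over the branch, 6 of 11 genes rose and 4 fell in pad4. The falls were those of ERF1 and of ERF2 (-1.21), ERF5 (-0.57) and ERF6 (-1.298), and ORA59, a factor that raises defensin genes, was not called (0.16, adjusted p = 0.22); the last 4 genes are named after their values were seen. Of the same genes, 9 had a positive interaction and 1 a negative one, where 7.28% and 7.56% of all loci had these.

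Of 32 genes of jasmonate synthesis and signalling, 22 fell and 2 rose (1 without pad4 -Fe replicate 1). CYP94B1, among the falls, was below 1 FPKM in every library labelled -Fe and could only be called lower. LOX2, the plastid lipoxygenase of jasmonate synthesis, fell from 254, 264 and 249.8 to 111, 98.6 and 108 FPKM (log2 difference -1.27, SE 0.068, adjusted p = 4.37e-08). VSP1, a storage protein that marks the wound branch, fell from 26.8, 34.4 and 29.1 to 7.66, 5.51 and 7.46 FPKM (log2 difference -1.99, SE 0.18, adjusted p = 3.52e-06). JAZ5, a repressor induced by jasmonate itself, fell from 32.3, 29.3 and 33.7 to 10.4, 9.41 and 11.2 FPKM (log2 difference -1.53, SE 0.093, adjusted p = 1.31e-07), in step with the synthesis genes. AOC4, an allene oxide cyclase, was one of the rises, from 12.8, 9.83 and 12.1 to 22.2, 23.4 and 16 FPKM, unlike its relative AOC3, which fell from 82.1, 75.5 and 81 to 32, 32.2 and 31.4 FPKM (log2 difference -1.29, SE 0.058, adjusted p = 1.06e-08). AOC3 and AOC4 are close paralogs.

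Camalexin genes fell, and glucosinolate genes rose more often than they fell. In the camalexin list 5 of 6 tested genes fell and 0 rose. CYP71A12, a cytochrome P450 of the pathway, fell from 42.8, 42 and 42.7 to 3.81, 4.08 and 4.91 FPKM (log2 difference -3.05, SE 0.079, adjusted p = 1.03e-10), a larger difference than in the wild type (interaction -1.59, SE 0.11, adjusted p = 3.51e-06). PAD3, the last enzyme, fell from 128, 131 and 133 to 60.4, 50.7 and 59.4 FPKM (log2 difference -1.19, SE 0.079, adjusted p = 2.51e-07). Of 24 glucosinolate genes, by contrast, 15 rose and 5 fell. The myrosinase TGG2, which breaks glucosinolates down in leaves, rose from 144, 172 and 154 to 512, 415 and 611 FPKM (log2 difference 1.69, SE 0.15, adjusted p = 2.96e-06), and CYP83B1 of indole glucosinolate synthesis from 129.9, 109 and 123 to 325, 304 and 258 FPKM (log2 difference 1.29, SE 0.12, adjusted p = 4.59e-06). CYP81F2, which modifies indole glucosinolates in defence, fell from 93.6, 97.6 and 96.5 to 61.3, 51.3 and 53.4 FPKM (log2 difference -0.79, SE 0.077, adjusted p = 5.81e-06), less than in the wild type (interaction 1.60, SE 0.11, adjusted p = 2.76e-06). Further members, chosen after their values were seen, moved both ways in each branch. In the aliphatic branch the regulator MYB29 rose by 0.73, CYP79F1 by 0.59 and CYP83A1 by 0.54. There MAM3 fell by 0.62 and CYP79F2 by 0.30 (limma adjusted p = 0.000227 and 0.017). Genes of the indole branch were mixed: the regulator MYB34 fell by 0.59 and the myrosinase PEN2 by 0.52, MYB51 was not called (0.16, adjusted p = 0.28) and CYP81F4 rose by 0.34.

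WRKY and NAC transcription factors fell more often than they rose. Of 49 WRKY genes 27 fell and 10 rose (6 without pad4 +Fe replicate 3 and 5 without pad4 -Fe replicate 1). WRKY15 fell from 226, 224 and 216 to 88, 85.9 and 81.3 FPKM (log2 difference -1.37, SE 0.062, adjusted p = 1.02e-08) and WRKY28 from 24, 27.6 and 23.9 to 4.65, 3.79 and 5.06 FPKM (log2 difference -2.26, SE 0.11, adjusted p = 1.8e-08). WRKY54, a regulator within salicylic acid signalling, rose from 3.01, 3.61 and 2.94 to 9.29, 7.31 and 10.8 FPKM (log2 difference 1.26, SE 0.14, adjusted p = 1.36e-05). Of 49 NAC genes 26 fell and 3 rose (5 without pad4 +Fe replicate 2 and after either rescaling). NAC13, a factor of the mitochondrial stress response, fell from 98.3, 121 and 108 to 11.6, 13.7 and 15.2 FPKM (log2 difference -2.93, SE 0.11, adjusted p = 2.38e-09). Of 39 glutathione S-transferases 17 fell and 15 rose, and 4 of the falls were of genes below 1 FPKM in every library labelled -Fe. GSTU24 fell from 66, 62.5 and 67.7 to 5.16, 4.21 and 5.3 FPKM (log2 difference -3.50, SE 0.09, adjusted p = 9.96e-11), whereas GSTF9 rose from 202, 156 and 161 to 797, 773 and 482 FPKM (log2 difference 1.95, SE 0.22, adjusted p = 1.95e-05).

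Heat shock genes fell in pad4. Of 13 small heat shock protein genes, whose products hold unfolding proteins in solution, 12 fell and 0 rose, with a median of -1.56 log2 units. Of the falls, 3 (HSP21, HSP22.0 and AT1G52560, a further member) were of genes below 1 FPKM in every library labelled -Fe. HSP23.6 (AT4G25200, chromosome 4, 12917017 to 12918053), a mitochondrial member, lay at 144, 189 and 148 FPKM in libraries labelled +Fe and at 8.14, 7.73 and 9.86 FPKM under the -Fe label (log2 difference -4.07, SE 0.15, adjusted p = 1.79e-09). HSP17.4, a cytosolic member, lay at 92.5, 119.9 and 88.4 FPKM and 22.4, 17.81 and 19.8 FPKM (log2 difference -2.26, SE 0.12, adjusted p = 3.6e-08). HSP17.6II lay at 145, 139.8 and 126 FPKM and 44.9, 38.2 and 48.1 FPKM (log2 difference -1.63, SE 0.10, adjusted p = 1.66e-07). In each of these genes the 3 libraries labelled -Fe lay below the 3 labelled +Fe by a wide margin. HSP21, the chloroplast member, was low throughout, at 1.15, 2 and 1.2 FPKM in libraries labelled +Fe and 0.087, 0 and 0.0817 FPKM under the -Fe label. HSP18.2 was the member without a call, at 1.8, 3.45 and 2.24 and 2.27, 2.4 and 2.59 FPKM.

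The wild type did the reverse. Its HSP23.6 lay at 37.3, 48.5 and 40.4 FPKM in libraries labelled +Fe and 677, 883 and 661 FPKM under the -Fe label (interaction -8.17, SE 0.21, adjusted p = 1.07e-09). Its HSP17.4 lay at 43.1, 44.1 and 48.3 FPKM in libraries labelled +Fe and 1286, 1167 and 1109 FPKM under the -Fe label (interaction -6.95, SE 0.17, adjusted p = 9.36e-10). HSP22.0 of the endoplasmic reticulum had the most negative interaction of all named genes, with 1.36, 1.47 and 1.13 and 0.354, 0.635 and 0.327 FPKM in pad4 against 0.296, 0.316 and 0.288 and 239, 274 and 247 FPKM in the wild type (interaction -8.30, SE 0.14, adjusted p = 5.97e-11). All 13 members had a called negative interaction, between -8.30 and -3.15 log2 units, where 7.56% of all loci had one. Among the members, HSP21, HSP22.0 and AT1G52560 passed the filter through the pad4 +Fe libraries only. Their pad4 difference could thus only be negative, and no support is read from their interaction. The summed level of the list was 1711 to 2431 FPKM in pad4 libraries labelled +Fe and 486 to 589 FPKM under the -Fe label, and 1016 to 1303 FPKM and 10066 to 12067 FPKM in the wild-type libraries with these labels. The 3 wild-type libraries labelled -Fe thus stood above the other 9 libraries.

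The larger chaperones and their regulators followed. Of 24 heat shock factors and chaperones 16 fell and 1 rose, and that rise was not called in several alternatives, among them without pad4 +Fe replicate 2 and without pad4 -Fe replicate 2 (0 rises in each); without pad4 -Fe replicate 3 there were 2. HSP70B, a heat-induced HSP70, fell from 18.5, 25.1 and 19.4 to 5.19, 4.55 and 6.64 FPKM (log2 difference -1.77, SE 0.15, adjusted p = 1.62e-06). ROF2, a co-chaperone with an FK506-binding domain, fell from 324, 328 and 314 to 158, 177 and 197 FPKM (log2 difference -0.86, SE 0.078, adjusted p = 3.21e-06). HSFA3, a heat shock factor that acts in drought and heat, fell from 31, 41.3 and 32.4 to 8.17, 5.82 and 10.2 FPKM (log2 difference -2.004, SE 0.18, adjusted p = 3.28e-06). Interactions were negative for 15 of the 24 genes and positive for 2, where 7.56% and 7.28% of all loci had these. HSP70B had -6.08, ROF2 -3.80 and HSFA3, which fell in both genotypes, -0.88.

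Abscisic acid genes were mostly lower in pad4. Of 24 genes of its synthesis, breakdown and signalling, 17 fell and 2 rose (median -0.81). The falls include the breakdown genes CYP707A1 (-0.82), CYP707A2 (-1.46), CYP707A3 (-0.87) and CYP707A4 (-1.40), so genes of synthesis and of breakdown were both lower. HAI2, also among the falls, was below 1 FPKM in every library labelled -Fe and could only be called lower. NCED3 (AT3G14440, chromosome 3, 4831288 to 4833599), the rate-limiting synthesis enzyme under drought, lay at 33.4, 32.2 and 32.1 FPKM in libraries labelled +Fe and at 6.52, 5.38 and 4.58 FPKM under the -Fe label (log2 difference -2.38, SE 0.094, adjusted p = 3.8e-09). The protein phosphatase genes ABI2 and HAB1, which hold the pathway off and are themselves induced by it, fell by 1.61 and 1.06 log2 units. ABI2 lay at 14.7, 16.9 and 14.8 FPKM and 4.03, 4.65 and 4.5 FPKM, and HAB1 at 47.9, 51.3 and 50.8 FPKM and 21.8, 24.9 and 23.9 FPKM. PYL4, a receptor that abscisic acid is known to lower, moved the other way, from 85.3, 67.4 and 75.4 to 231, 236 and 159 FPKM (log2 difference 1.43, SE 0.18, adjusted p = 4.11e-05). The wild type moved less in NCED3, ABI2, HAB1 and PYL4. NCED3 lay at 38.5, 35.3 and 37.8 FPKM in wild-type libraries labelled +Fe and 23.51, 22.7 and 22.3 FPKM under the -Fe label (interaction -1.70, SE 0.13, adjusted p = 8.4e-06). The interactions of ABI2, HAB1 and PYL4 were -1.11, -0.89 and 1.304 (adjusted p = 0.000104, 4.05e-05 and 0.00513). The breakdown genes were called lower in the wild type too (CYP707A1 -0.77, CYP707A2 -1.32, CYP707A3 -1.62 and CYP707A4 -0.94). Among these, only CYP707A3 had a called interaction (0.75, limma adjusted p = 0.0122). In all, 10 of the list had a negative and 4 a positive interaction, where 7.56% and 7.28% of all loci had these.

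Genes that mark cold and drought went with them. Of 10 dehydrin and marker genes 8 fell and 2 rose (1 without pad4 +Fe replicate 2, pad4 +Fe replicate 3 or pad4 -Fe replicate 1). ERD10, a dehydrin, fell from 210.2, 253 and 218 to 67.7, 60 and 77.7 FPKM (log2 difference -1.72, SE 0.12, adjusted p = 4.64e-07). In the wild type it lay at 227, 264 and 228 and 269, 327 and 253 FPKM (interaction -1.95, SE 0.17, adjusted p = 2.19e-05). RD26, a NAC factor induced by drought, fell from 61.4, 72.7 and 64.5 to 17.1, 12.4 and 14.1 FPKM (log2 difference -2.12, SE 0.11, adjusted p = 4.36e-08), with an interaction of -1.70. NAC019, a close relative of RD26, fell from 30.6, 27.3 and 34.7 to 6.47, 6.35 and 5.51 FPKM (log2 difference -2.16, SE 0.091, adjusted p = 6.31e-09) and had an interaction of -2.70. COR15A, a cold-induced plastid protein, fell from 17, 14.9 and 14.3 to 2.66, 2.22 and 2.33 FPKM (log2 difference -2.27, SE 0.12, adjusted p = 3.36e-08) and by -2.09 in the wild type, with an interaction of -0.17 that was not called (adjusted p = 0.535). Its tandem copy COR15B rose from 6.98, 5.85 and 8.3 to 12.2, 9.4 and 11.5 FPKM (log2 difference 0.59, SE 0.13, adjusted p = 0.00227).

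Of 22 early stress regulators 18 fell and 0 rose (1 without pad4 -Fe replicate 2). ZAT12, a zinc finger factor of oxidative stress, fell from 87.7, 116 and 95.8 to 22.4, 15.8 and 16.2 FPKM (log2 difference -2.41, SE 0.13, adjusted p = 6.5e-08), and ERF11 from 43.9, 46.8 and 43.6 to 21.5, 18.4 and 18.9 FPKM (log2 difference -1.15, SE 0.084, adjusted p = 5.59e-07). Such genes respond within minutes to touch and handling, and no source used here gives the time and manner of harvest. Their interactions were positive for 8 and negative for 2, where 7.28% and 7.56% of all loci had these.

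Transcripts of 7 seed storage genes were present in the pad4 -Fe libraries and nearly absent from the other 9. Of 11 listed genes 8 were tested, and these 7 passed the filter through the pad4 -Fe libraries only, so that they could only be called higher; their values are given as a description. SESA4 (AT4G27170, chromosome 4, 13613596 to 13614283), a 2S albumin, was listed at 32.8, 44.2 and 36.8 FPKM in the pad4 -Fe libraries and at 0 in the 9 others. CRA1 (AT5G44120, chromosome 5, 17756264 to 17758288), a 12S cruciferin, lay at 19.6, 22.8 and 26.5 FPKM in pad4 libraries labelled -Fe, at 0.138, 0.169 and 0.105 FPKM in the pad4 +Fe libraries and at no more than 0.391 FPKM in the wild type. CRU3, a further cruciferin, lay at 17.2, 18.22 and 20.6 FPKM in the pad4 -Fe libraries and at 0 in the 3 labelled +Fe. The 7 genes lay at 8.70 to 44.2 FPKM in all 3 pad4 -Fe libraries and at most at 0.391 FPKM in the other 9. SESA2, a neighbour of SESA4, followed another course: it lay at 11.8, 12.8 and 13.6 FPKM in pad4 libraries labelled +Fe, 21.1, 25.3 and 25.7 FPKM under the -Fe label and 10.2, 10.6 and 10.8 FPKM in wild-type libraries labelled +Fe, whereas the 3 wild-type libraries labelled -Fe had 0. The 2S albumin genes are tandem copies that share fragments. EM1 and EM6, which mark late embryos, did not exceed 0.103 FPKM in pad4 libraries labelled -Fe, so not every seed gene took part. Whether seeds or seed coats among the seedlings contributed was not tested. The part of seeds in the falls of abscisic acid and heat shock genes, found in the same 3 libraries, was not tested either. Several of those abscisic acid genes were also called lower in the wild type.

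**Figure D3:**
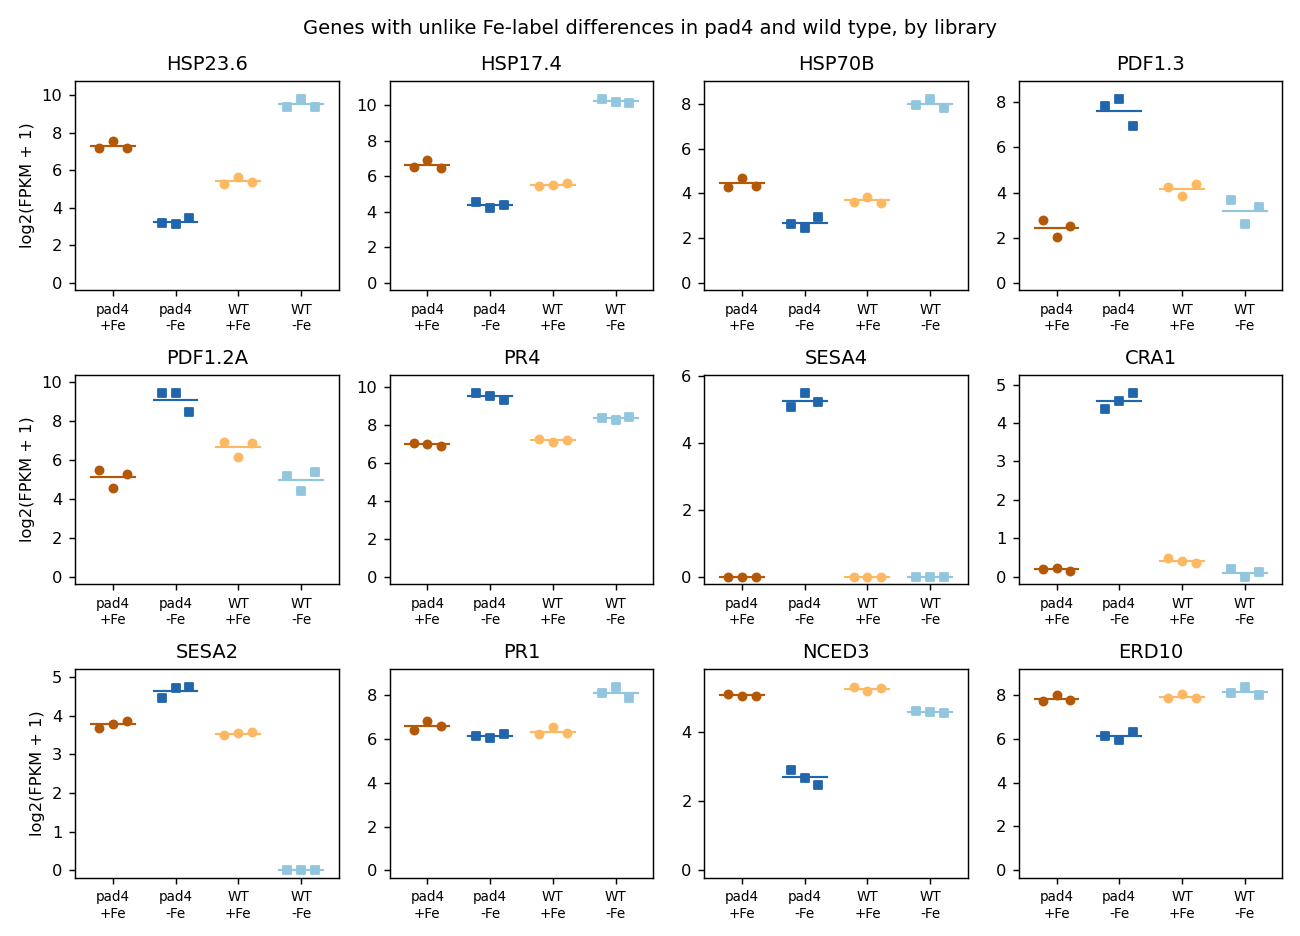
Level of 12 genes in all 12 libraries as log2(FPKM + 1), with 1 panel per gene and its own vertical axis from 0. Points are libraries, circles labelled +Fe and squares labelled -Fe, and lines are group means. HSP23.6, HSP17.4 and HSP70B are highest in wild type -Fe, PDF1.3, PDF1.2A and PR4 in pad4 -Fe, SESA4 and CRA1 are near 0 outside pad4 -Fe, and NCED3 and ERD10 are lowest in pad4 -Fe.

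Few root markers were expressed, and shoot markers rose. Of 18 root marker genes 6 passed the filter, and 15 of the 18 did not exceed 2.15 FPKM in any pad4 library, with FEZ and EXPA7 listed at 0 in all 3 libraries labelled +Fe. The other 3 were expressed. SCR, a radial patterning factor that shoots also express, lay at 16.3, 23.1 and 16.8 FPKM in libraries labelled +Fe and at 22.6, 21.3 and 24.4 FPKM under the -Fe label (not called, adjusted p = 0.16). SHR, its partner, lay at 5.58, 6.64 and 5.28 FPKM and at 8.99, 6.10 and 7.75 FPKM (not called, adjusted p = 0.057). PYK10, an abundant root glucosidase that seedling cotyledons also make, rose from 291, 293 and 286 to 486, 428 and 444 FPKM (log2 difference 0.64, SE 0.066, adjusted p = 9.41e-06). PYK10 carried most of the summed level of the list, which was 312 to 328 FPKM in libraries labelled +Fe and 463 to 524 FPKM under the -Fe label. The labels call this tissue shoot in one place and leaves and roots in another. Of 11 shoot markers 8 rose and 1 fell (0 without pad4 +Fe replicate 2, pad4 -Fe replicate 1 or pad4 -Fe replicate 2). GLK1, a factor that drives chloroplast development, rose from 17.3, 15.68 and 17.7 to 66.4, 65.7 and 53.5 FPKM (log2 difference 1.81, SE 0.12, adjusted p = 2.09e-07). The summed level of the shoot list was 14826 to 16887 FPKM in libraries labelled +Fe and 24846 to 31169 FPKM under the -Fe label, beside the rise of the photosynthesis lists, and its part in the other results was not tested.

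Genes of growth rose more often than they fell. Of 32 core histone and tubulin genes 25 rose and 2 fell (0 without pad4 +Fe replicate 1 or pad4 -Fe replicate 3, 1 without pad4 -Fe replicate 2). TUB1, a beta-tubulin, rose from 5.14, 5.58 and 3.85 to 20.8, 21 and 23.3 FPKM (log2 difference 1.96, SE 0.13, adjusted p = 1.9e-07) and TUA3, an alpha-tubulin, from 90.2, 85.2 and 87.3 to 188, 184 and 179.6 FPKM (log2 difference 1.06, SE 0.057, adjusted p = 4.63e-08). Of 23 cyclins 15 rose and 3 fell. CYCB2;1, among the rises, was below 1 FPKM in every library labelled +Fe and could only be called higher. CYCA1;1 of the mitotic cycle rose from 5.66, 5.98 and 4.93 to 15, 14.1 and 15.6 FPKM (log2 difference 1.29, SE 0.087, adjusted p = 3.04e-07), whereas CYCD3;2, a cyclin that links growth signals to the cycle, fell from 107, 91.7 and 104 to 54.6, 47.6 and 48.8 FPKM (log2 difference -0.99, SE 0.072, adjusted p = 5.68e-07). Of 42 cell wall loosening genes 22 rose and 11 fell, 4 of the rises and 4 of the falls being of genes that reached 1 FPKM under one label only. XTH9 rose from 35.7, 37.6 and 36.5 to 144, 141 and 122 FPKM (log2 difference 1.86, SE 0.083, adjusted p = 9.62e-09), and the expansin-like gene EXLB1 from 3.31, 3.87 and 2.66 to 37.7, 35.2 and 28.9 FPKM (log2 difference 3.03, SE 0.13, adjusted p = 5.75e-09). XTH18 fell from 95.4, 75.2 and 94.9 to 39.1, 43.7 and 33.3 FPKM (log2 difference -1.17, SE 0.14, adjusted p = 2.92e-05).

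Water channels and hormone response genes were mixed. Of 23 aquaporins 9 rose, 5 fell and 9 were not called. Among the rises, TIP3;1 and TIP4;1 were below 1 FPKM in every library labelled +Fe and could only be called higher. Among the falls, NIP2;1 was below 1 FPKM in every library labelled -Fe and could only be called lower. PIP2;8 of the plasma membrane rose from 5.27, 4.93 and 4.92 to 21.7, 20.6 and 15.4 FPKM (log2 difference 1.73, SE 0.14, adjusted p = 1.36e-06) and SIP1;2 of the endoplasmic reticulum fell from 11.1, 9.09 and 10.5 to 2.98, 3.21 and 2.64 FPKM (log2 difference -1.51, SE 0.10, adjusted p = 3.29e-07). Of 20 Aux/IAA repressors of auxin signalling 4 rose (2 without pad4 -Fe replicate 2) and 7 fell. A negative interaction was called for 6 and a positive one for 0, where 7.56% and 7.28% of all loci had these. IAA14 fell from 9.99, 12.2 and 11.3 to 3.38, 3.26 and 3.95 FPKM (log2 difference -1.42, SE 0.09, adjusted p = 1.75e-07). Of 8 type-A cytokinin response regulators 3 rose and 5 fell. ARR15 rose from 2.5, 1.56 and 1.6 to 4.83, 3.79 and 4.9 FPKM (log2 difference 0.94, SE 0.14, adjusted p = 0.000133) and ARR9 fell from 13.4, 10.9 and 11.2 to 6.63, 5.69 and 4.77 FPKM (log2 difference -0.94, SE 0.14, adjusted p = 0.00015).

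Genes of pigment synthesis fell. Of 21 flavonoid and anthocyanin genes 17 fell and 1 rose (2 without pad4 -Fe replicate 2), with a median of -1.12, and 3 of the falls were of genes below 1 FPKM in every library labelled -Fe. PAP1, the MYB factor that drives anthocyanin synthesis, fell from 14.2, 13.4 and 13.4 to 1.22, 1.13 and 1.29 FPKM (log2 difference -2.73, SE 0.12, adjusted p = 1.02e-08). DFR, an enzyme of the anthocyanin branch, fell from 26.2, 23.4 and 23.7 to 4.1, 3.93 and 3.95 FPKM (log2 difference -2.35, SE 0.076, adjusted p = 7.16e-10), and TT19, a glutathione S-transferase needed to store the pigment, from 51.7, 40.4 and 47.9 to 4.79, 3.98 and 6.64 FPKM (log2 difference -2.97, SE 0.15, adjusted p = 2.84e-08). EGL3, a bHLH partner of PAP1, rose from 1.23, 1.21 and 1.1 to 2.45, 2.28 and 1.95 FPKM (log2 difference 0.56, SE 0.087, adjusted p = 0.000195), so the partners moved in opposite directions.

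Nutrient and energy status genes moved as well. Of 17 phosphate starvation genes 10 rose and 1 fell (0 without pad4 -Fe replicate 2). SPX1, an intracellular phosphate sensor induced by phosphate shortage, rose from 19.4, 14.6 and 17.9 to 99.9, 117 and 95.6 FPKM (log2 difference 2.53, SE 0.11, adjusted p = 6.31e-09). SQD1, a sulfolipid enzyme, rose from 47.5, 44 and 46 to 103, 96.1 and 98.3 FPKM (log2 difference 1.096, SE 0.057, adjusted p = 3.43e-08). Of 14 sugar starvation genes 7 rose and 6 fell. SEN1, a gene induced by darkness, rose from 16.5, 14.8 and 16 to 154, 146 and 149 FPKM (log2 difference 3.17, SE 0.094, adjusted p = 3.12e-10), more than in the wild type (interaction 0.80, SE 0.13, adjusted p = 0.002). BCAT2, a transaminase of branched-chain amino acids, rose from 0.216, 0.186 and 0.598 to 19.9, 20.7 and 19.4 FPKM (log2 difference 3.99, SE 0.13, adjusted p = 5.27e-10). BGLU30, a glucosidase gene also induced in the dark, fell from 9.58, 11.6 and 8.67 to 0.444, 0.449 and 0.688 FPKM (log2 difference -2.84, SE 0.12, adjusted p = 7.82e-09). BCAT2 was below 1 FPKM in every library labelled +Fe and BGLU30 in every library labelled -Fe. The filter could thus admit BCAT2 only as a rise and BGLU30 only as a fall, and both are in the counts of this list.

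Clock genes were mostly lower. Of 19 clock genes 12 fell and 3 rose (1 without pad4 +Fe replicate 1 or pad4 -Fe replicate 2). RVE1, a morning MYB factor, fell from 38.3, 44.1 and 38.3 to 13, 12.4 and 13.1 FPKM (log2 difference -1.57, SE 0.072, adjusted p = 1.15e-08), and PRR9, a morning repressor, from 22.3, 19.9 and 20.6 to 6.99, 6.28 and 7.8 FPKM (log2 difference -1.45, SE 0.091, adjusted p = 1.69e-07). LNK1, a coactivator of the same phase, fell from 98.6, 98.9 and 101 to 26.3, 28.3 and 32.6 FPKM (log2 difference -1.75, SE 0.083, adjusted p = 1.6e-08), more than in the wild type (interaction -1.27, SE 0.12, adjusted p = 3.12e-05). BOA, an evening complex factor, rose from 7.86, 7.44 and 7.38 to 13.6, 12.4 and 11.3 FPKM (log2 difference 0.65, SE 0.093, adjusted p = 0.000117). No source used here gives the hour of harvest.

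Over the whole table, the Fe-label difference in pad4 resembled that in the wild type and departed from it at a minority of loci. The wild type had 10220 calls among the same loci (52.0%), and 7861 loci were called in both genotypes, which is 69.1% of the pad4 calls and 76.9% of the wild-type calls. Of these, 7489 moved the same way and 372 the opposite way, 160 of them higher and 212 lower in pad4 libraries labelled -Fe. The difference between genotypes was called at 2917 loci (14.8%; 4091 loci without the 4 libraries that deviate alike), of which 1431 were positive and 1486 negative. Among the 2917, the pad4 difference was larger with the same sign at 946, smaller with the same sign at 770 and of opposite sign at 1201. An interaction of at least 1 log2 unit was called at 690 loci, 290 positive and 400 negative. Several Fe-status genes named above had no called interaction, with values of -0.33 for bHLH100, -0.07 for FER1, -0.21 for BTS and -0.20 for FRO2 (adjusted p = 0.219, 0.705, 0.131 and 0.316); a p that misses the threshold does not show that the genotypes respond alike. AT1G47400 was called, at 0.86 (adjusted p = 0.0482). Of the 26 uptake and transport genes, 7 had a called positive and 1 a called negative interaction, or 4 and 2 without the pair of libraries that deviate alike. Over all loci the shares were 7.28% and 7.56%. FRO6, a leaf ferric reductase chosen after its values were seen, differed by 0.40 log2 units in pad4 and by -0.41 in the wild type (interaction 0.81, limma adjusted p = 0.0025).

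**Figure D4:**
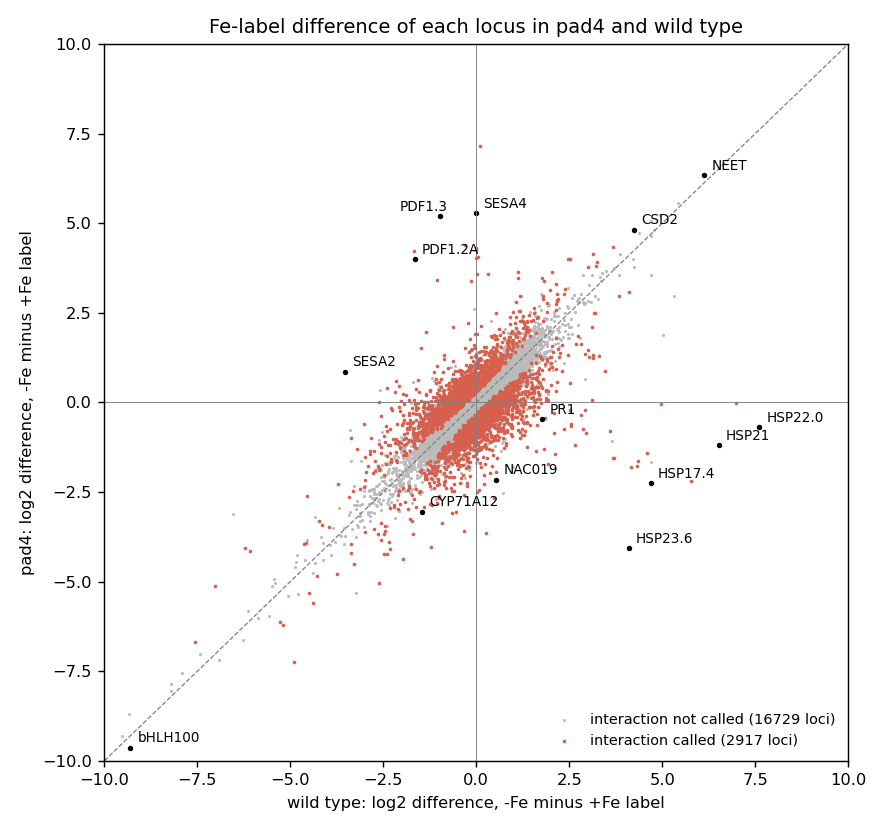
Log2 difference between libraries labelled -Fe and +Fe of each of the 19646 loci, in the wild type on the horizontal and in pad4 on the vertical axis. Red points are the 2917 loci with a called interaction, grey points the 16729 others, the dashed line marks equal differences and named genes are in black. Fe-status genes such as bHLH100 and NEET lie near the line, heat shock genes at the lower right and defensin and seed storage genes above it.

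The authors' deposited table of the same comparison gave 10804 loci with a q-value under 0.05, 5016 higher and 5788 lower in libraries labelled -Fe. The authors' deposited table marked 3519 of them, which were those with an absolute log2 fold above 1. Of the 11377 limma calls, 9637 (84.7%) had a q-value under 0.05 in the authors' deposited table, and all 9637 had the same direction. Of the 10460 tested loci with such a q-value in the authors' deposited table, 92.1% had a limma call. Of the 165 named genes with a limma call, 11 had no q-value under 0.05 in the authors' deposited table. Among them were some of the largest changes, since q in the authors' deposited table was 0.119 for bHLH39, 0.157 for bHLH38, 0.0803 for bHLH101 and for NDB4, 0.163 for TDR1 and 0.340 for NEET, whereas it was 0.000174 for bHLH100 and FER1.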

How the data were processed

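RNA of 12 seedling samples (wild type and pad4, each labelled +Fe and -Fe, 3 libraries per group) was sequenced. The deposited expression table holds FPKM per locus on TAIR10, per the submitters' processing notes, with the aligner and quantifier not given in the sources used here. The authors' deposited table of the pad4 comparison holds log2 fold changes, p-values and q-values, and the file headers name a test statistic, a score that was not used. The files hold FPKM and no counts, so limma 3.58.1 in R 4.3.3 was run on log2(FPKM + 1) rather than a count test, with a mean-variance trend, 1 mean for each of the 4 groups and Benjamini-Hochberg adjustment over the 19646 loci with 1 FPKM or more in at least 3 of the 6 pad4 libraries. The contrasts were the label difference in pad4, that in the wild type and their difference (interaction). Loci of 1 gene were matched by identifier; symbols come from RefSeq (TAIR10.1), used for names alone, and 25 of 982 list members were not found as a locus of their own. Of several entries of 1 gene, the one with the highest mean was used.

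The genes named were the 10 largest rises and falls of at least 5 FPKM in pad4, of each of 38 lists the up to 3 members with the smallest p and the largest change each way, the 8 largest interactions each way, and a set of Fe and defence genes. The comparison, the lists and the rule were chosen with earlier results of these data known. Alternatives were other filters, pseudocounts, scalings and fits, and leaving out libraries. The fit was tested on simulated data. Depth cannot be given, since FPKM hold no counts; relative depth was read from the smallest values above 0. Replicate numbers were not taken to pair libraries, since those of pad4 -Fe did not deviate with their numbers. Tables were drawn up with pandas 2.3.3 and figures with matplotlib 3.10.9 (Python 3.11.15).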

Additional observations from a re-analysis of the deposited data

Results flagged for a closer look

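Genes are given here because the test of the difference between the pad4 and the wild-type Fe-label difference passed at an adjusted p under 0.05 (limma interaction). All values are pad4 minus wild type on the log2(FPKM + 1) scale. They number 85 of the 167 named genes, but 8 genes in each direction were named for the size of this very value, so that share is no result. At 14.8% of all tested loci the same test passed.

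Heat shock genes had negative values, and genes of abscisic acid, drought and early stress had values of both signs. Among small heat shock proteins the interaction was -8.30 for HSP22.0, -8.17 for HSP23.6, -7.71 for HSP21, -6.99 for HSP18.2, -6.95 for HSP17.4, -5.98 for HSP17.6II, -5.97 for AT2G29500 and -5.26 for HSP17.6A. It was -6.08 for HSP70B, -3.80 for ROF2, -1.75 for the chaperone CLPB4 and -0.88 for HSFA3. HSP21 and HSP22.0 passed the filter through the pad4 +Fe libraries only, so no support is read from their interaction. Of the abscisic acid and drought genes, ERD10 had -1.95, RD26 -1.70, NCED3 -1.70, ABI2 -1.11 and HAB1 -0.89. The opposite sign was found for PYL4, at 1.304, and COR15B, at 1.22. Of the early stress genes RRTF1 had -1.13 and ZAT12 0.73; over that list 8 genes had a positive and 2 a negative value past the test.

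Defence genes had values of both signs. The defensins gave 6.17 for PDF1.3, 5.88 for PDF1.2C, 5.65 for PDF1.2A and 4.48 for PDF1.2B, which share similar sequences, and PR4 gave 1.39 and CHIB 1.01. PR1 gave -2.24, UGT76B1 -1.098, WRKY54 -0.95, ICS1 -0.66, EDS1 -0.60 and PCC1 1.02. The camalexin genes gave -1.59 for CYP71A12, -0.87 for PAD3 and -0.76 for GSTU4. The glucosinolate genes gave 1.60 for CYP81F2 and 0.62 for CYP83B1, and the jasmonate genes -0.65 for AOC3 and 0.34 for LOX2. Among transcription factors NAC019 had -2.70, NAC047 -1.42, NAC13 -1.31, NAC044 -0.55, WRKY28 -0.97 and WRKY30 -0.67. Detoxifying enzymes had -1.69 for GSTL1, -1.27 for GSTU9, -1.14 for GSTU11 and -1.21 for UGT74E2.

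Seed storage genes had positive values, 5.27 for SESA4, 4.69 for CRA1, 4.39 for SESA2 and 4.31 for CRU3. These are no folds, because SESA4 and CRU3 are listed at 0 in pad4 libraries labelled +Fe and SESA2 in wild-type libraries labelled -Fe. SESA4, CRA1 and CRU3 passed the filter through the pad4 -Fe libraries only. Their pad4 difference could thus only be positive, and no support is read from their interaction.

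Fe, sulfur and plastid genes had smaller values: 1.82 for SUFE2, 0.93 for SDI1, 0.89 for SIR, 0.65 for LSU1, 0.52 for NRT1.1, 0.88 for CP12-2, 0.86 for AT1G47400, 0.69 for VTL5, 0.61 for RFNR2 and 0.58 for CAT3. Genes of energy status, phosphate and the clock gave 1.53 for BCAT2, -1.61 for BGLU30, 0.80 for SEN1, 0.34 for DIN10, 0.75 for PHO1, -0.38 for SQD1, -1.27 for LNK1 and 0.48 for PRR9. Genes of growth, hormones, water and pigment gave -1.44 for IAA6, -0.52 for IAA14, -1.40 for ARR8, -0.42 for CYCA1;1, 0.84 for TUB1, 0.67 for TUA3, 0.67 for EXLB1, 0.40 for XTH16, 0.73 for XTH18, 0.89 for SIP1;2 and 0.68 for DFR. The tissue markers PYK10 and KAT1 gave 0.57 and 0.47.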

How the results depend on the processing

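The count of loci called in pad4 was 10114 to 11530 when each library was left out in turn, 10569 with only the 6 pad4 libraries and 10304 without pad4 +Fe replicate 2 and pad4 -Fe replicate 3. Calls of at least 1 log2 unit numbered 2475 to 2872 with a library left out and 3431 with a pseudocount of 0.1. Interaction calls numbered 2029 to 3231 with a library left out. The share of higher calls, 45.8% as deposited, was 51.6% after quantile normalization and 49.6% after median-ratio scaling; rescaling moved the median of all loci from -0.05 to 0.01 or -0.01. The log2 difference of HSP18.2 in pad4 (-0.0065) changed sign with a pseudocount of 0.1 (0.0033), median-ratio scaling (0.024), quantile normalization (0.047), without the pair of libraries named above or 4 that deviate alike (0.15), and over libraries left out in turn (lowest -0.15, highest 0.18); the cause was not tested. Of 3005 values for the 167 named genes, 2960 kept their direction and call, 37 lost the call, 1 gained it and 7 changed sign. The 352 values for the 16 largest interactions all kept theirs. Of 1368 list counts, 65 moved by over 1.5 times; without the 4 alike libraries, rises numbered 5 in place of 2 in the jasmonate list, 4 in place of 2 in the abscisic acid list, 5 in place of 3 among NAC genes, 1 in place of 0 among early stress genes and 0 in place of 1 among larger chaperones.

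Replicate numbers were not taken to pair the samples: deviations of same-numbered pad4 libraries correlated across loci at 0.15, -0.32 and -0.27. Among the other groups the 9 same-numbered pairs correlated at 0.15 to 0.56, and with pad4 -Fe 9 pairs at -0.45 to 0.15, a hint from the data that numbers are shared outside pad4 -Fe. With the number as a replicate block 11472 loci were called in pad4 and 2909 in the interaction, and 9026 in a fit of the 6 pad4 libraries with the block, which was added after seeing the data. Depth is unknown, the pseudocount understates changes of low genes, and an exact 0 may be a failed estimate: 49 tested loci had 0 in 1 library beside 5 FPKM or more in another of its group.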

Other observations

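Some named genes outside the groups above had values that differed between genotypes. SUFE2, a sulfur-transfer partner of plastid Fe-S assembly, stood at 10.8, 13.5 and 10.1 FPKM in pad4 libraries labelled +Fe and 40.5, 35.2 and 28.2 FPKM in those labelled -Fe, against 22, 20.8 and 20.3 FPKM and 17.43, 15.74 and 17 FPKM in the wild type. It was called higher in pad4 (log2 difference 1.51, SE 0.13, adjusted p = 1.81e-06), and pad4 -Fe was the highest of the 4 groups. NAC047, a stress-induced NAC factor, rose in pad4 from 3.35, 2.54 and 3.01 to 7.36, 5.36 and 6.26 FPKM and stood at 2.11, 2.39 and 2.05 and 13.2, 14.5 and 16.5 FPKM in the wild type (interaction -1.42, SE 0.17, adjusted p = 0.00023), one of few NAC genes that rose in the mutant. CP12-2, a small regulator of Calvin cycle enzymes, stood at 349, 352 and 368 and 641, 597 and 539 FPKM in pad4 and at 313, 291 and 317 and 292, 261 and 277 FPKM in the wild type (interaction 0.88, SE 0.11, adjusted p = 0.0003).

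The hormone response genes IAA6 and ARR8 fell in pad4. IAA6, an auxin repressor with 2 entries, stood at 2, 3.24 and 1.75 and 0.881, 0.689 and 0.546 FPKM in pad4 and at 2.71, 3.28 and 2.64 and 3.32, 6 and 4.39 FPKM in the wild type (interaction -1.44, SE 0.27, adjusted p = 0.00421). Since IAA6 was below 1 FPKM in every pad4 library labelled -Fe, the filter could admit it only as a fall in pad4. ARR8, a type-A response regulator, stood at 24.1, 30 and 26.9 and 8.42, 9.28 and 17.36 FPKM in pad4 and at 14.4, 21.9 and 15.8 and 17, 30.6 and 14.7 FPKM in the wild type (interaction -1.40, SE 0.41, adjusted p = 0.0399).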
